A study of Caenorhabditis elegans with 12 samples.

Results

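The 10 genes described here code for chaperones, proteases and regulators of the mitochondrial unfolded protein response (UPRmt) of C. elegans: hsp-6, hsp-60, atfs-1, dve-1, ubl-5, haf-1, clpp-1, lonp-1, ymel-1 and spg-7. They were taken by their WBcel235 gene names, and all 10 were found among the 46904 gene identifiers of the study. The data are RNA sequencing counts from whole animals collected at the last larval stage (L4). The 4 groups were miR-85(n4117) animals heat shocked (HS) for 3 hrs at 35°C after 44 hrs at 20°C, miR-85(n4117) animals kept for 47 hrs at 20°C, WT (Bristol N2) animals heat shocked in the same way, and WT animals kept for 47 hrs at 20°C. Each group had 3 libraries, which the study describes as independent biological replicates. The n4117 deletion removes the microRNA gene mir-85, and counts on F49E12.8, a protein-coding gene, were also low in the mutant (0 to 11 per library, against 78 to 220 in WT), so the strains differ in more than the microRNA.

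The UPRmt is the program by which cells answer misfolded proteins or failing import in mitochondria. In healthy worms the transcription factor ATFS-1 is imported into mitochondria and degraded there. When import is impaired it enters the nucleus and, with the homeodomain protein DVE-1 and the ubiquitin-like protein UBL-5, raises transcription of mitochondrial chaperone genes. hsp-6 and hsp-60 are the usual reporters of the response in worms, and mitochondrial proteases remove the proteins that chaperones cannot refold.

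Heat shock and genotype were visible in the genes that mark them. The cytosolic chaperone gene hsp-70 had 116984 to 138174 counts in miR-85(n4117) libraries at 35°C, against 533 to 2056 at 20°C, and 102477 to 167035 counts in WT libraries at 35°C, against 31 to 246 at 20°C. The mir-85 locus had 0 counts in every mutant library and 0 to 9 in WT. Counts on protein-coding genes ranged from 18080627 to 29652439, apart from 9505142 in replicate 3 of WT at 20°C, in which 65.5% of all counts fell on ribosomal RNA genes. Markers of intestine, muscle, pharynx, neurons, hypodermis and germ line were detected in all 12 libraries. Markers of the adult stage (vit-2, vit-6 and col-19) varied far more: their summed level was 344 to 4932 CPM (counts per 1000000 counts, normalized for composition) in miR-85(n4117) at 35°C, against 85.1 to 973 CPM at 20°C, and 2284 to 8014 CPM in WT at 35°C, against 765 to 947 CPM at 20°C. The highest value of each 35°C group was in its replicate 2, where the larval hypodermis markers dpy-7 and rol-6 summed to 39.8 CPM in miR-85(n4117) and 62.7 CPM in WT, the lowest of all libraries. These 2 libraries and WT replicate 3 at 20°C were taken as those that stood apart, and the main results are given with and without them. Replicate 1 of miR-85(n4117) at 20°C also differed from its group in the adult markers (973 CPM, against 198 and 85.1 CPM). It was not among the 3 left out. In whole animals, fewer cells of a type and less RNA per cell cannot be told apart.

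Per kilobase of exon the members spanned a wide range. Averaged over the 12 libraries, hsp-60 had 232 CPM per kb and hsp-6 195, followed by ubl-5 (44.9), spg-7 (33.9), lonp-1 (27.1), clpp-1 (26.4), ymel-1 (16.8), atfs-1 (10.9), dve-1 (3.31) and haf-1 (1.56). The chaperones were thus far above the proteases, and the proteases above the transcription factors. haf-1 rested on 36 to 135 counts per library and every other member on at least 160. All 10 passed the filter on low counts in each comparison.

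**Figure D1:**
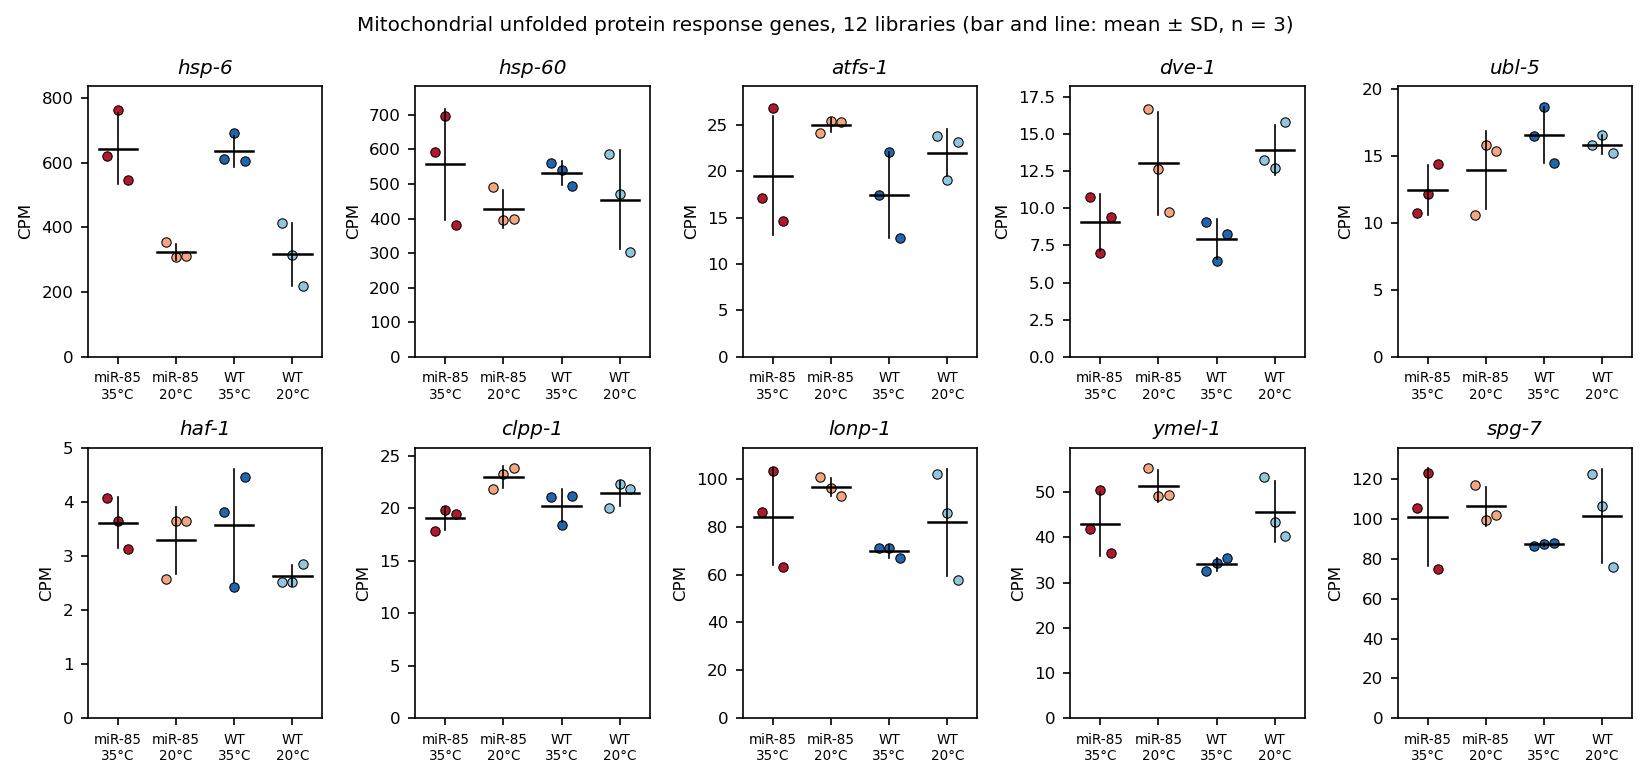
CPM of each of the 10 genes (y axis, from 0) in miR-85(n4117) at 35°C and 20°C and WT at 35°C and 20°C (x axis); points are libraries, bars and lines the mean ± SD (n = 3). hsp-6 lies between 547 and 763 CPM in the 6 libraries at 35°C and between 220 and 415 CPM in the 6 at 20°C, while in most other panels the groups overlap.

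The main result was a rise of hsp-6 upon HS in both strains. Of the 10 genes it was the only one that passed the test (adjusted p under 0.05, edgeR) upward, in miR-85(n4117) and in WT. Upward calls made up 9.35% of the 16585 genes tested in miR-85(n4117) and 12.9% in WT, so 1 of 10 members is close to the background. Downward, 0 members passed in miR-85(n4117) and 1 (dve-1) in WT, where 5.88% and 9.29% of all genes did. The median log2 fold change of the members was -0.18 in miR-85(n4117), against 0.05 over all genes tested, and -0.15 in WT, against 0.04 over all genes. Scaling by protein-coding totals in place of TMM moved the median of all genes to -0.11 in miR-85(n4117) and -0.08 in WT, and the upward share of all calls to 43.4% in miR-85(n4117), against 61.4% with TMM, and to 45.8% in WT, against 58.2% with TMM. hsp-6 then stood at 0.83 (adjusted p = 0.0429) in miR-85(n4117) and 0.87 (adjusted p = 0.0306) in WT.

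hsp-6 (WBGene00002010, chromosome V, 4824124 to 4826760, minus strand) codes for the mitochondrial Hsp70 of the matrix, which folds imported proteins and helps pull them through the inner membrane. It had 621, 763 and 547 CPM in miR-85(n4117) replicates 1 to 3 at 35°C, against 354, 309 and 311 CPM at 20°C. In WT it had 611, 691 and 606 CPM at 35°C, against 415, 316 and 220 CPM at 20°C. Every 35°C library was above every 20°C library, in each strain and across them. At 35°C hsp-6 was highest in replicate 2 of both strains, the library with the highest adult markers. In WT the summed adult markers were also higher in every 35°C library than in every 20°C library, while in miR-85(n4117) they overlapped. The part of stage in the values of hsp-6 was not tested. The fold was 1.98 in miR-85(n4117) (log2 fold change 0.99 ± 0.22, SE, adjusted p = 0.0116) and 2.01 in WT (1.00 ± 0.22, adjusted p = 0.00869). Among the 16585 genes tested hsp-6 ranked 2183 by log2 fold change in miR-85(n4117) and 2167 in WT, so the rise exceeded the spread between replicates but many genes rose more.

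The paper's stricter limits keep only protein-coding genes, with normalized counts averaging over 10 and an absolute log2 fold change of 1 or more. The paper set them on DESeq2 comparisons of the strains at each temperature. Here they were applied to the edgeR comparisons of the temperatures, so the shares below are not calls of the paper. hsp-6 met them in WT and fell just short in miR-85(n4117), so that 1 member passed in WT and 0 in the mutant. These limits called 6.11% of 14748 genes upward and 5.42% downward in WT, and 4.43% upward and 3.31% downward in miR-85(n4117). Without the 3 libraries that stood apart the log2 fold change of hsp-6 was 0.84 in miR-85(n4117) (adjusted p = 0.00696) and 0.74 in WT (adjusted p = 0.0175). The call in miR-85(n4117) was lost when replicate 2 or replicate 3 at 20°C was left out (adjusted p = 0.0555 and 0.0526), with log2 fold changes of 0.95 in both cases.

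The WT libraries were sequenced in different lanes, and hsp-6 was higher at 35°C within each. The log2 difference of hsp-6 was 0.56 in lane 3, with 1 library at each temperature, and 1.30 in lane 8, with 2 at each. Every mutant library came from lane 3.

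hsp-60 (WBGene00002025, chromosome III, 1619742 to 1625803, plus strand) codes for the mitochondrial chaperonin, the barrel-shaped chaperone of the matrix. It had 593, 697 and 382 CPM in miR-85(n4117) at 35°C, against 493, 396 and 398 CPM at 20°C, and 562, 541 and 495 CPM in WT at 35°C, against 588, 471 and 303 CPM at 20°C. The groups overlapped in both strains. The log2 fold change was 0.38 ± 0.26 (SE) in miR-85(n4117) (adjusted p = 0.363) and 0.23 ± 0.26 in WT (adjusted p = 0.558). Without the 3 libraries that stood apart it was 0.18 in the mutant and -0.004 in WT.

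**Figure D2:**
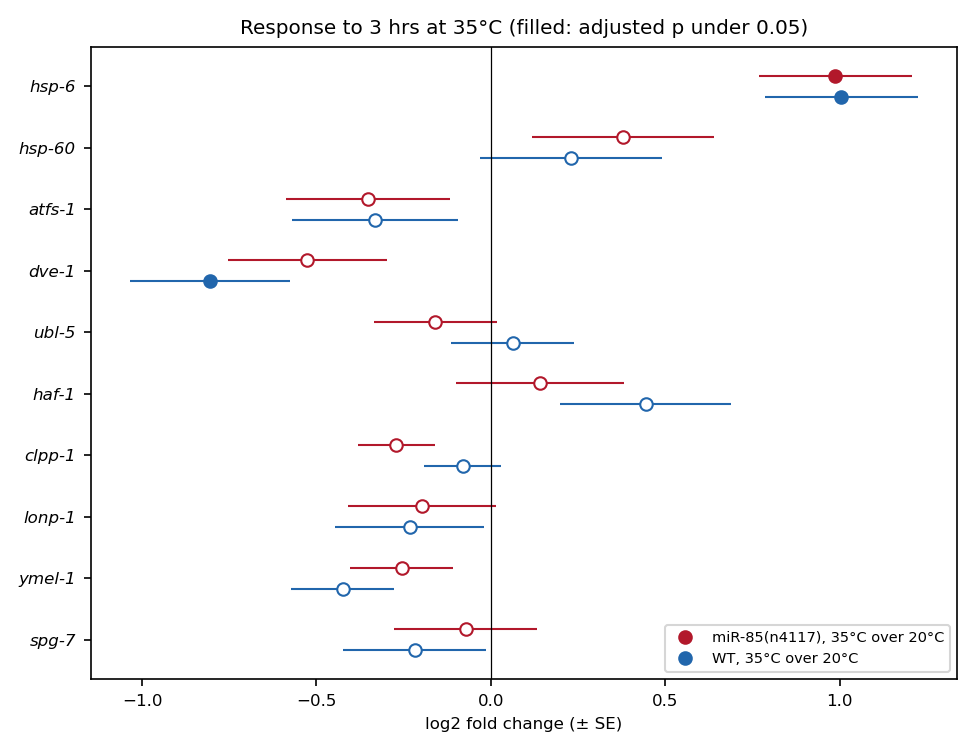
Log2 fold change of each gene (x axis, 35°C over 20°C, lines ± SE) in miR-85(n4117) (upper point, red) and WT (lower point, blue); filled points have an adjusted p under 0.05. hsp-6 stands at 0.99 and 1.00, dve-1 in WT at -0.81, and the remaining points lie between -0.53 and 0.44 and are open.

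Of the regulators, dve-1 in WT passed the test and the others did not. atfs-1 (WBGene00013878, chromosome V, 14193663 to 14197700, plus strand) codes for the bZIP transcription factor at the centre of the response. It had 17.1, 26.8 and 14.7 CPM in miR-85(n4117) at 35°C, against 24.1, 25.5 and 25.3 CPM at 20°C, and 17.4, 22.1 and 12.83 CPM in WT at 35°C, against 23.8, 19.1 and 23.2 CPM at 20°C. In both strains replicates 1 and 3 at 35°C were below all 20°C libraries of the strain, and replicate 2, the library with the highest adult markers, was not. The log2 fold change was -0.35 ± 0.24 (SE) in miR-85(n4117) (adjusted p = 0.35) and -0.33 ± 0.24 in WT (adjusted p = 0.336). Without the 3 libraries that stood apart it was -0.66 in miR-85(n4117) (adjusted p = 0.0264) and -0.50 in WT (adjusted p = 0.0754). The part of the adult markers in these values was not tested.

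dve-1 (WBGene00022861, chromosome X, 427035 to 433812, minus strand) codes for a homeodomain protein that binds chromatin of the chaperone genes during the response. It had 10.8, 7.0 and 9.43 CPM in miR-85(n4117) at 35°C, against 16.7, 12.7 and 9.77 CPM at 20°C, and 9.1, 6.46 and 8.28 CPM in WT at 35°C, against 13.3, 12.7 and 15.8 CPM at 20°C. The WT groups did not overlap, while in miR-85(n4117) replicate 1 at 35°C was above replicate 3 at 20°C. dve-1 fell upon HS in WT, to 0.572 of its level (log2 fold change -0.81 ± 0.23, SE, adjusted p = 0.0293). In miR-85(n4117) the value was -0.53 ± 0.23 (adjusted p = 0.146). The difference between the 2 responses (the interaction term) was 0.28 ± 0.32, SE, on the log2 scale (adjusted p = 1), so the strains were not shown to differ in this gene.

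The WT call for dve-1 was lost when any of 5 libraries was left out: WT 20°C replicate 1 (adjusted p = 0.0612), 2 (0.0573) or 3 (0.0733), or WT 35°C replicate 2 (0.0978) or 3 (0.0623). It was also lost without the 3 libraries that stood apart, where the log2 fold change was -0.58 (adjusted p = 0.102). dve-1 was lowest at 35°C in replicate 2 of both strains. Within the lanes of WT its log2 difference was -0.54 (lane 3, 1 library at each temperature) and -0.95 (lane 8, 2 at each). Some markers of intestine and neurons fell at 35°C too. The summed level of 3 intestine markers was 197 to 286 CPM in miR-85(n4117) at 35°C, against 396 to 503 CPM at 20°C, and 226 to 259 CPM in WT at 35°C, against 492 to 679 CPM at 20°C; 1 of the 3 (vha-6) fell in miR-85(n4117) and 2 (vha-6 and ges-1) in WT, while elt-2 had log2 fold changes of 0.12 in miR-85(n4117) and -0.39 in WT (adjusted p = 0.594 and 0.0561). The summed level of 3 neuronal markers was 6.21 to 8.12 CPM in miR-85(n4117) at 35°C, against 12.0 to 13.04 CPM at 20°C, and 5.21 to 7.96 CPM in WT at 35°C, against 10.5 to 13.7 CPM at 20°C, with 2 of the 3 falling in each strain. None of these markers was at 0. Their part in the values of dve-1 was not tested.

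ubl-5 (WBGene00006726, chromosome I, 5607826 to 5608841, minus strand), the ubiquitin-like partner of DVE-1, had 12.5 ± 1.84 CPM in miR-85(n4117) at 35°C, against 13.9 ± 2.91 CPM at 20°C, and 16.6 ± 2.08 CPM in WT at 35°C, against 15.8 ± 0.688 CPM at 20°C (SD, n = 3). The groups overlapped and the log2 fold changes were -0.16 ± 0.18 (SE) in the mutant and 0.06 ± 0.18 in WT (adjusted p = 0.592 and 0.825). haf-1 (WBGene00001811, chromosome IV, 17376427 to 17379310, plus strand) codes for an inner membrane transporter that exports peptides from the matrix. It had 3.63 ± 0.468 CPM in miR-85(n4117) at 35°C, against 3.3 ± 0.617 CPM at 20°C, and 3.57 ± 1.05 CPM in WT at 35°C, against 2.64 ± 0.193 CPM at 20°C (SD, n = 3). Its log2 fold changes were 0.14 ± 0.24 (SE) and 0.44 ± 0.25 (adjusted p = 0.743 in miR-85(n4117) and 0.215 in WT). haf-1 shares 64 exon bases with C30H6.9 on the opposite strand, and the counting used strand.

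None of the 4 protease genes passed the test upon HS. Over all genes 9.35% passed upward and 5.88% downward in miR-85(n4117), and 12.9% and 9.29% in WT. All 8 log2 fold changes of the proteases were below 0, under every scaling. The signs are not independent, since lonp-1, ymel-1 and spg-7 varied together within the groups (Pearson's r 0.867 to 0.975). The log2 fold change of spg-7 in miR-85(n4117) was 0.10 when replicate 3 at 35°C was left out. clpp-1 (WBGene00014172, chromosome II, 10300714 to 10302842, minus strand) codes for the ClpP peptidase of the matrix. It had 17.8, 19.9 and 19.4 CPM in miR-85(n4117) at 35°C, against 21.8, 23.2 and 23.9 CPM at 20°C, and 21.1, 18.4 and 21.2 CPM in WT at 35°C, against 20.1, 22.3 and 21.9 CPM at 20°C. In miR-85(n4117) all 35°C libraries were below all 20°C libraries, and in WT they overlapped. The log2 fold change was -0.27 ± 0.11 (SE) in miR-85(n4117) (adjusted p = 0.123) and -0.08 ± 0.11 in WT (adjusted p = 0.631), and in the mutant it passed with protein-coding totals (-0.44, adjusted p = 0.0362). The interaction was -0.19 (adjusted p = 1).

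ymel-1 (WBGene00010842, chromosome III, 10416139 to 10421757, plus strand) codes for the i-AAA protease of the inner membrane, whose active site faces the intermembrane space. It had 42.0, 50.5 and 36.6 CPM in miR-85(n4117) at 35°C, against 55.3, 49.2 and 49.4 CPM at 20°C, and 32.5, 34.3 and 35.4 CPM in WT at 35°C, against 53.3, 43.3 and 40.4 CPM at 20°C. The WT groups did not overlap and those of miR-85(n4117) did. The log2 fold change was -0.43 ± 0.15 (SE) in WT (adjusted p = 0.0619) and -0.26 ± 0.15 in miR-85(n4117) (adjusted p = 0.275). In WT it passed the threshold in 4 of 15 alternatives: with DESeq2 (adjusted p = 0.0451), with scaling by protein-coding totals (0.0475), without WT 20°C replicate 3 (0.0445), and without the 3 libraries that stood apart (0.0364).

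lonp-1 (WBGene00016391, chromosome I, 10676922 to 10682374, minus strand), which codes for the Lon protease of the matrix, had 84.2 ± 20.1 CPM in miR-85(n4117) at 35°C, against 96.5 ± 3.82 CPM at 20°C, and 69.6 ± 2.54 CPM in WT at 35°C, against 81.8 ± 22.4 CPM at 20°C (SD, n = 3). spg-7 (WBGene00004978, chromosome I, 3467132 to 3478517, plus strand), which codes for a subunit of the m-AAA protease of the inner membrane, had 101 ± 24.5 CPM in miR-85(n4117) at 35°C, against 106 ± 9.58 CPM at 20°C, and 87.2 ± 0.777 CPM in WT at 35°C, against 101 ± 23.7 CPM at 20°C (SD, n = 3). The groups overlapped for both genes. Their log2 fold changes were -0.20 and -0.07 in miR-85(n4117) and -0.23 and -0.22 in WT, with adjusted p of 0.579 and 0.854 in the mutant and 0.458 and 0.471 in WT. In all, the libraries of the 2 temperatures did not overlap for 1 member upward and 1 downward in miR-85(n4117), and for 1 upward and 2 downward in WT. The shares over all genes were 21% upward and 17.6% downward in miR-85(n4117), and 22% upward and 18.3% downward in WT.

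Within the groups 5 members, picked with their values in view, deviated from the mean together, except in WT at 35°C. hsp-6, hsp-60, lonp-1, ymel-1 and spg-7 were highest together in replicate 2 and lowest together in replicate 3 of miR-85(n4117) at 35°C, and highest together in replicate 1 and lowest together in replicate 3 of WT at 20°C. In WT at 35°C ymel-1 was lowest in replicate 1 and highest in replicate 3 (log2 deviations -0.066 and 0.056). hsp-60 ran the other way there (0.08 and -0.104). As deviations from the group means over the 12 libraries, Pearson's r was 0.985 between hsp-60 and spg-7, 0.979 between hsp-60 and lonp-1, 0.975 between lonp-1 and spg-7, and 0.92 between hsp-6 and hsp-60. Over the 9 libraries left without the 3 that stood apart, the same values were 0.961, 0.958, 0.932 and 0.812. These values are a description, since all genes of a library share its depth and normalization. In WT replicate 3 at 20°C, the library rich in ribosomal RNA, the log2 deviation from the group mean was -0.53 for hsp-60, -0.48 for hsp-6, -0.46 for lonp-1, -0.39 for spg-7 and -0.17 for ymel-1. In that library ubl-5 stood at -0.06 and atfs-1, dve-1, haf-1 and clpp-1 above their group means. atfs-1 was also highest in replicate 2 and lowest in replicate 3 of miR-85(n4117) at 35°C, and its r with the 5 genes ranged from 0.4 to 0.489. The r of hsp-6 with clpp-1 was -0.408 over 12 libraries and -0.953 over 9, and that with dve-1 -0.35 over 12 and 0.521 over 9, so these depended on the 3 libraries.

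**Figure D3:**
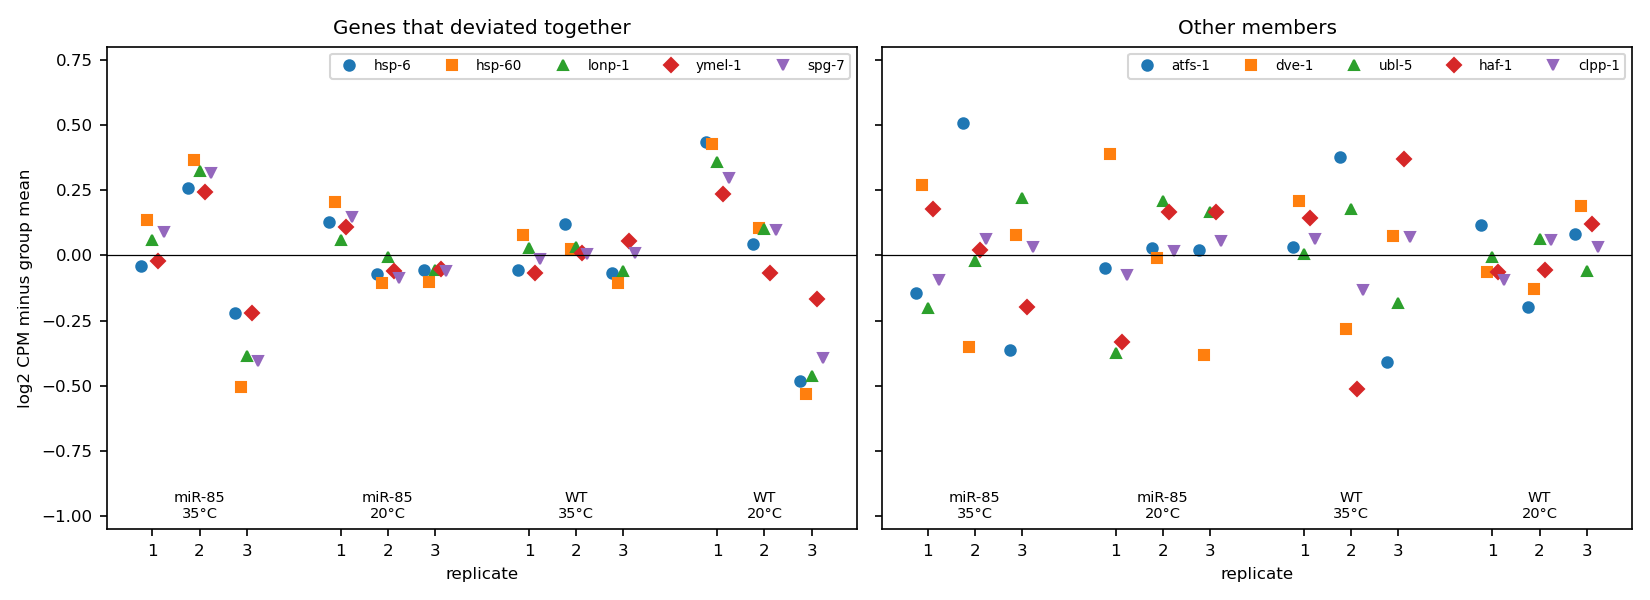
Log2 CPM minus the mean of the group (y axis) for each library (x axis, replicates 1 to 3 of each group), for hsp-6, hsp-60, lonp-1, ymel-1 and spg-7 (left) and the other 5 genes (right). On the left the 5 symbols are all low in replicate 3 of miR-85(n4117) at 35°C (-0.503 to -0.221) and of WT at 20°C (-0.53 to -0.168). In WT at 35°C they share no order. On the right, atfs-1 (-0.364) and haf-1 (-0.198) are also low in replicate 3 of miR-85(n4117) at 35°C, while dve-1, ubl-5 and clpp-1 are above 0. In replicate 3 of WT at 20°C only ubl-5 on the right is below 0 (-0.06).

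The ratio of the counts of 2 genes within a library removes such shared variation and needs no normalization. The ratios described here were chosen after their values had been seen, among the 45 pairs of members, and carry no test. The ratio of hsp-6 to hsp-60 was 1.05, 1.09 and 1.43 in miR-85(n4117) at 35°C, against 0.718, 0.779 and 0.782 at 20°C. In WT it was 1.09, 1.28 and 1.22 at 35°C, against 0.705, 0.671 and 0.724 at 20°C. hsp-6 thus had more counts than hsp-60 in all 6 libraries at 35°C and fewer in all 6 at 20°C. The rise of the ratio was 1.55-fold in miR-85(n4117) and 1.71-fold in WT.

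Both chaperone genes were higher at 35°C relative to lonp-1, ymel-1 and spg-7, and hsp-6 also relative to clpp-1. The ratio of hsp-60 to clpp-1 overlapped between the temperatures, at 33.4, 35.1 and 19.6 in miR-85(n4117) at 35°C, against 22.6, 17.1 and 16.7 at 20°C, and 26.6, 29.4 and 23.4 in WT at 35°C, against 29.3, 21.1 and 13.9 at 20°C. The ratio of hsp-6 to lonp-1 was 7.22, 7.38 and 8.65 in miR-85(n4117) at 35°C, against 3.52, 3.21 and 3.35 at 20°C, and 8.62, 9.69 and 9.08 in WT at 35°C, against 4.07, 3.69 and 3.8 at 20°C. The ratio of hsp-60 to lonp-1 was 6.90, 6.75 and 6.04 in miR-85(n4117) at 35°C, against 4.90, 4.12 and 4.28 at 20°C, and 7.93, 7.59 and 7.42 in WT at 35°C, against 5.76, 5.50 and 5.25 at 20°C. The temperatures did not overlap in either strain for either ratio, although the CPM of hsp-60 did. The ratio of the proteases lonp-1 and spg-7 averaged 0.834 ± 0.0149 in miR-85(n4117) at 35°C, against 0.911 ± 0.0533 at 20°C, and 0.798 ± 0.033 in WT at 35°C, against 0.801 ± 0.0355 at 20°C (SD, n = 3). In miR-85(n4117) its 35°C libraries were all below its 20°C libraries (0.817, 0.839 and 0.845, against 0.857, 0.964 and 0.912), and in WT they overlapped.

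The ratio of hsp-60 to lonp-1 rose 1.48-fold in miR-85(n4117) and 1.39-fold in WT. That to spg-7 rose 1.36-fold and 1.38-fold, and that to ymel-1 1.52-fold and 1.62-fold, each without overlap of the libraries. The log2 fold change of hsp-60 itself was 0.38 in miR-85(n4117) and 0.23 in WT. Those of lonp-1, spg-7 and ymel-1 were -0.20, -0.07 and -0.26 in miR-85(n4117) and -0.23, -0.22 and -0.43 in WT. None of these changes passed the test. Over all genes tested, a ratio of hsp-60 to another gene that was higher in every 35°C library of both strains was found for 13.2%, and the members for which it was found were these 3 proteases. The same share for hsp-6 was 56.8%, and 8 of the other 9 members were among them, all except haf-1.

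**Figure D4:**
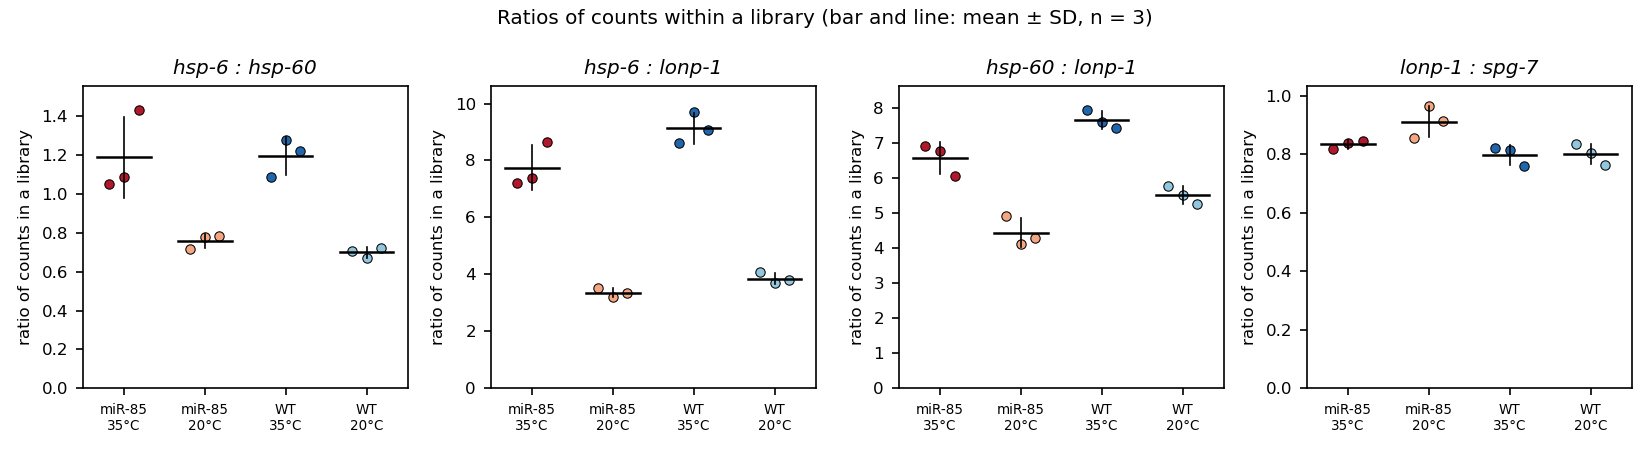
Ratio of counts within a library (y axis, from 0) for hsp-6 to hsp-60, hsp-6 to lonp-1, hsp-60 to lonp-1 and lonp-1 to spg-7, in miR-85(n4117) at 35°C and 20°C and WT at 35°C and 20°C (x axis); points are libraries, bars and lines the mean ± SD (n = 3). The first 3 ratios are higher at 35°C in both strains without overlap, and lonp-1 to spg-7 lies between 0.760 and 0.964 throughout.

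The strains were compared at each temperature to see whether loss of miR-85 changed these genes. None of the 10 passed the test at 20°C or at 35°C, where 0.0521% of 15349 genes and 0.019% of 15803 genes did. The number of members with an unadjusted p under 0.05 was 0 at both temperatures, and DESeq2 also called 0, while 9.68% of all genes at 20°C and 2.38% at 35°C had such an unadjusted p. At 20°C the log2 fold change of hsp-6 (miR-85(n4117) over WT) was 0.03 and that of hsp-60 -0.08 (adjusted p = 0.975 and 0.936). The largest at 20°C was that of haf-1, 0.33 ± 0.20 (SE, adjusted p = 0.635).

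At 35°C hsp-6 and hsp-60 differed by 0.02 and 0.07 on the log2 scale (adjusted p = 0.995 or above). The members farthest from 0 there were ubl-5, at -0.41 ± 0.18 (SE, adjusted p = 0.995), and ymel-1, at 0.34 ± 0.16 (adjusted p = 0.995). ubl-5 had 10.8, 12.2 and 14.4 CPM in miR-85(n4117), against 16.5, 18.7 and 14.5 CPM in WT, and ymel-1 had 42.0, 50.5 and 36.6 CPM in miR-85(n4117), against 32.5, 34.3 and 35.4 CPM in WT. Neither pair of groups overlapped, though the nearest libraries of ubl-5 were almost level. Such a separation at 35°C was seen in 3.42% of all genes upward and 3.58% downward. At 20°C it was seen in 9.19% upward and 8.23% downward, and among the members for atfs-1 alone, with 24.1, 25.5 and 25.3 CPM in miR-85(n4117), against 23.8, 19.1 and 23.2 CPM in WT (log2 fold change 0.18, adjusted p = 0.651). Only WT replicate 1 shared its sequencing lane with the mutant libraries, so lane and strain can be separated only through that library.

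The responses to HS were also compared between the strains, as the interaction of strain and heat shock. No member passed, and the differences (miR-85(n4117) minus WT) lay between -0.30 for haf-1 and 0.28 for dve-1 on the log2 scale. For hsp-6 the difference was -0.02 ± 0.31 (SE), with nearly the same fold in both strains. Of all genes 0% passed with edgeR, 2.27% had an unadjusted p under 0.05, and none of the members was among them. DESeq2 called 1 gene, which was no member.

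Across the 4 groups the order of the mean levels followed temperature for hsp-6, which was highest in miR-85(n4117) at 35°C (644 ± 110 CPM), then WT at 35°C (636 ± 47.6), miR-85(n4117) at 20°C (325 ± 25.2) and WT at 20°C (317 ± 97.6, SD, n = 3 each). The only neighbours in this order whose libraries did not overlap were WT at 35°C and miR-85(n4117) at 20°C. hsp-60 had both 35°C groups above both 20°C groups as well, with all neighbours overlapping. For atfs-1, dve-1, clpp-1, ymel-1 and spg-7 both 20°C groups had the higher means. For spg-7 the margin was small (101.4 CPM in WT at 20°C, against 101.1 CPM in miR-85(n4117) at 35°C). lonp-1 and spg-7 were highest in miR-85(n4117) at 20°C and lowest in WT at 35°C, again with all neighbours overlapping.

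The coding genes whose log2 CPM followed hsp-6 most closely over the 12 libraries, among 13032 with a mean over 1 CPM, were Y38E10A.28 (r = 0.980), dnj-12 (0.976), which codes for a DnaJ-type co-chaperone, and fkb-6 (0.973), which codes for a peptidyl-prolyl isomerase of the FK506-binding family. hsp-60 ranked 1402 for likeness to hsp-6, with r = 0.760. The genes closest to hsp-60 were iars-1 (0.956) and tars-1 (0.946), which code for aminoacyl-tRNA synthetases, and cct-6 (0.947), which codes for a subunit of the cytosolic chaperonin. spg-7 had r = 0.636 with hsp-60. dve-1 ran opposite to hsp-6 (r = -0.815), as did clpp-1 (-0.737). These correlations describe 12 libraries that share treatments and depth.

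Wider lists of mitochondrial genes were described in the same way. Of 17 genes of protein import and processing, 0 rose and 2 fell in miR-85(n4117), where 9.35% and 5.88% of all genes did, and 1 rose and 1 fell in WT, where 12.9% and 9.29% did. In the mutant immp-1, a subunit of the inner membrane peptidase, had 5.93 ± 1.30 CPM at 35°C, against 9.30 ± 1.18 CPM at 20°C (log2 fold change -0.65, adjusted p = 0.0422), and tin-9.1, a small chaperone of the intermembrane space, had 18.6 ± 1.79 CPM at 35°C, against 26.6 ± 2.22 CPM at 20°C (-0.52, adjusted p = 0.0359; SD, n = 3). In WT timm-23, the channel of the inner membrane translocase, rose to 83.6 ± 12.6 CPM at 35°C, against 58.4 ± 6.19 CPM at 20°C (0.52, adjusted p = 0.0262), and scpl-4, the Tim50 receptor of that translocase, fell to 31.5 ± 3.84 CPM at 35°C, against 48.9 ± 6.07 CPM at 20°C (-0.64, adjusted p = 0.0441). timm-23 was also higher in miR-85(n4117), by 0.45 (adjusted p = 0.0591). Without the 3 libraries that stood apart, tin-9.1 (adjusted p = 0.0343), timm-23 (0.0441) and scpl-4 (0.0458) kept their calls and immp-1 lost its call (-0.55, adjusted p = 0.108). The median log2 fold change of the list was -0.16 in miR-85(n4117) and -0.07 in WT.

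Of 10 further chaperones, prohibitins and protease partners, K07A3.3 alone passed, upward in both strains, with 17.5 ± 1.05 CPM in miR-85(n4117) at 35°C, against 12.3 ± 2.04 CPM at 20°C, and 18.1 ± 2.29 CPM in WT at 35°C, against 12.2 ± 0.920 CPM at 20°C (SD, n = 3; log2 fold changes 0.51 and 0.56, adjusted p = 0.0441 and 0.0232). Without the 3 libraries that stood apart neither call held (0.51 and 0.43, adjusted p = 0.0543 and 0.107). The mitochondrial DnaJ-type co-chaperone dnj-10, the mitochondrial Hsp90 hsp-75 and the prohibitins phb-1 and phb-2 did not pass, with log2 fold changes from -0.18 to -0.03 in the 2 strains, and neither did D2030.2 (0.43 in miR-85(n4117) and 0.70 in WT) or stl-1 (0.11 and 0.40, adjusted p = 0.638 and 0.0618). In each strain 5 of the 10 were positive and 5 negative. Of 9 other regulators of the response, among them the chromatin factors lin-65, met-2, jmjd-1.2 and jmjd-3.1, none passed in either strain. Over all genes tested, 9.35% rose and 5.88% fell in miR-85(n4117), and 12.9% rose and 9.29% fell in WT. The counts of calls in the lists of this paragraph are close to that background. Of 7 other genes reported to rise with the UPRmt, 0 rose and 1 fell in each strain. This was lys-2, a lysozyme gene, with 16.4 ± 3.26 CPM in miR-85(n4117) at 35°C, against 71.5 ± 24.4 CPM at 20°C, and 21.9 ± 3.71 CPM in WT at 35°C, against 121 ± 25.8 CPM at 20°C (SD, n = 3; log2 fold changes -2.12 and -2.46, adjusted p = 0.000523 and 0.000205). lys-2 is known as a gene of the intestine, of whose 3 markers 1 fell in miR-85(n4117) and 2 in WT, and their part in this value was not tested. The call of lys-2 held in 15 of 15 alternatives in each strain.

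Of the 12 protein-coding genes of the mitochondrial genome, 0 rose and 1 fell in each strain, with medians of -0.48 in miR-85(n4117) and -0.29 in WT. Over all genes 9.35% rose and 5.88% fell in miR-85(n4117), and 12.9% rose and 9.29% fell in WT. The gene that fell in miR-85(n4117), WBGene00010966, had 7.53 ± 2.19 CPM at 35°C, against 13.3 ± 2.41 CPM at 20°C (log2 fold change -0.82, adjusted p = 0.0448), and without the 3 libraries that stood apart its call was lost (-0.65, adjusted p = 0.0668). The one that fell in WT, WBGene00010963, had 210 ± 36.0 CPM at 35°C, against 445 ± 66.0 CPM at 20°C (-1.08, adjusted p = 0.00905, and 0.00686 without the 3 libraries), and in miR-85(n4117) 207 ± 70.5 CPM at 35°C, against 338 ± 24.8 CPM at 20°C (-0.70, adjusted p = 0.069; SD, n = 3). Between the strains, at either temperature and in the interaction, no gene of the 5 lists passed the test.

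**Figure D5:**
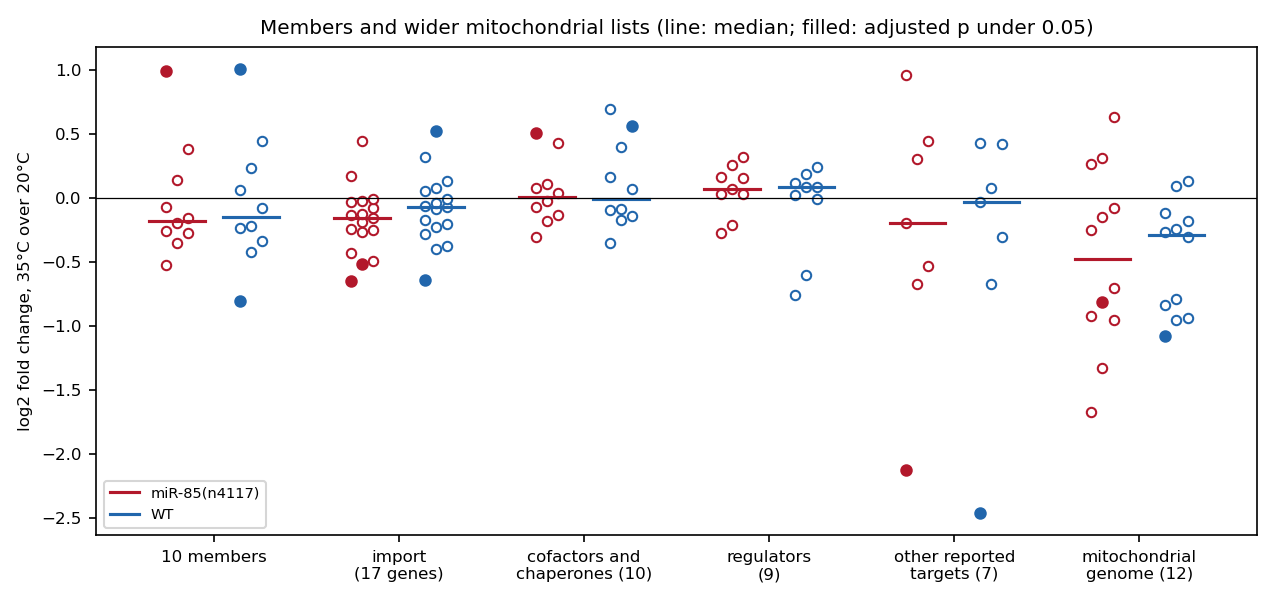
Log2 fold change, 35°C over 20°C (y axis), of the 10 members and of each gene of the 5 wider lists (x axis) in miR-85(n4117) (red, left) and WT (blue, right); lines are medians and filled points have an adjusted p under 0.05. Filled points are few, the regulators have none, and lys-2 lies lowest at -2.12 and -2.46.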

How the data were processed

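The authors isolated total RNA with TRIzol, depleted ribosomal RNA and made strand-specific libraries; STAR was their aligner and featureCounts their counter (version 1.6.5 and annotation release 100, with the strand setting 2, per the file headers). Each deposited table holds the raw counts of 1 library for 46904 genes, without normalization. Total counts per library ranged from 23871531 to 38586076. Names and WBcel235 positions came from Ensembl release 115, which held 46817 identifiers.

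Counts were fitted in R 4.3.3 with edgeR 4.0.16 (filterByExpr, TMM, robust quasi-likelihood, Benjamini-Hochberg over all genes tested). Heat shock and interaction used all 12 libraries and 4 groups, and strains the 6 libraries of a temperature. CPM used TMM library sizes. The SE was taken as the size of the log2 fold change over the square root of the F statistic. Log2 CPM for correlations used a prior count of 2. Alternatives were DESeq2 1.42.0, other scaling, filters, libraries, lane, replicate block and leaving out libraries. The procedure was tested on simulated counts.

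The members and lists were chosen with earlier results of these data known. All 10 members are named, and of the wider lists up to 3 genes that rose and 3 that fell in each heat shock comparison; other genes named were picked with their values in view. One planned name, which in worms belongs to a gene outside mitochondria, was dropped before its values were seen. clpx-1 and R151.7 were not matched by name, but R151.7 is hsp-75 in the release used and was described under that name.

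Replicate numbers come from the titles. The deposited tables carry letters instead, the same at both temperatures of a strain but B, D and E for WT and A, B and C for miR-85(n4117), so that numbers and letters pair the strains differently and the pairing of the strains rests on the correlations alone. Deviations of same-numbered libraries correlated at 0.309, 0.141 and 0.391 between WT at 35°C and 20°C. Between the strains at 35°C they correlated at 0.513, 0.592 and 0.356. The values were of mixed sign between miR-85(n4117) at 35°C and 20°C (-0.229, -0.373 and 0.429). They were also mixed between the strains at 20°C (0.095, -0.246 and 0.042). The main tests used group means without pairing, and the replicate block was run as an alternative for every comparison.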

Additional observations from a re-analysis of the deposited data

How the results depend on the processing

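Over all alternatives the number of members called between the strains and for the interaction stayed 0, and hsp-6 upon heat shock in WT passed in 15 of 15 (adjusted p 0.000383 to 0.0427) and in miR-85(n4117) in 13 of 15 (0.000636 to 0.0555). The count in miR-85(n4117) (1) was 2 with protein-coding totals (clpp-1 added), 2 without the 3 libraries that stood apart, an alternative chosen after seeing the data (atfs-1 added), 0 under the paper's stricter limits, and 0 to 1 when single libraries were left out. The count in WT (2) was 1 under those limits, 3 with DESeq2 and protein-coding totals, and 1 to 2 without single libraries. The replicate block, used because some numbers pair the libraries, changed no count of members and turned only the interaction of lonp-1 (-0.03). Of 800 single log2 fold changes of members 53 changed sign, none of them past the threshold. With protein-coding totals these were haf-1 in miR-85(n4117) upon heat shock (-0.024), ubl-5 in WT upon heat shock (-0.058), and hsp-60 (0.02) and dve-1 (0.042) between strains at 20°C, where this scaling moved the median of all genes to 0.135. With lane as a covariate they were hsp-6 (-0.346), lonp-1 (-0.072), ymel-1 (-0.047) and spg-7 (-0.195) at 20°C and hsp-60 (-0.013), dve-1 (-0.007) and haf-1 (-0.075) at 35°C. Without the 3 libraries they were hsp-60 (-0.004) and ubl-5 (-0.064) upon heat shock in WT, hsp-6 (-0.182) and spg-7 (-0.117) at 20°C, hsp-6 (-0.047), hsp-60 (-0.102) and haf-1 (-0.186) at 35°C, and the interaction of hsp-6 (0.102). Leaving out single libraries gave ranges across 0 for haf-1 (-0.013 to 0.229) and spg-7 (-0.24 to 0.101) upon heat shock in miR-85(n4117), ubl-5 in WT (-0.034 to 0.148), scpl-4 in miR-85(n4117) (-0.37 to 0.048), at 20°C hsp-6 (-0.182 to 0.271), hsp-60 (-0.315 to 0.142), dve-1 (-0.305 to 0.078) and spg-7 (-0.117 to 0.215), at 35°C hsp-6 (-0.114 to 0.117), hsp-60 (-0.117 to 0.273), atfs-1 (-0.127 to 0.367) and haf-1 (-0.196 to 0.214), and in the interaction hsp-6 (-0.262 to 0.165), hsp-60 (-0.084 to 0.358), atfs-1 (-0.319 to 0.188), lonp-1 (-0.156 to 0.21) and spg-7 (-0.022 to 0.321). The cause of these changes was not tested. Over all genes 2527 were called upon heat shock in miR-85(n4117), 3868 with DESeq2, 1373 with at least 10 counts in every library and 1495 to 2434 without single libraries, and 3684 in WT, 2426 in a fit of WT alone and 2154 to 3774 without single libraries. Between strains 8 were called at 20°C (249 with DESeq2, 123 without a filter, 14 in a fit of all 12 libraries, 0 with 10 counts in every library, 2 with the replicate block, with lane or without the 3 libraries, and 1 to 11 without single libraries) and 3 at 35°C (13 with DESeq2, 8 without a filter, 6 in a fit of all 12 libraries, 0 with lane or 10 counts in every library, and 0 to 1 without single libraries). Of the calls in the wider lists, K07A3.3 held in 5 of 15 alternatives in miR-85(n4117) and 8 in WT, immp-1 and tin-9.1 in 8, WBGene00010966 in 7, timm-23 and scpl-4 in 9, and lys-2 and, in WT, WBGene00010963 in 15. Other libraries in the fit do not exist for the interaction. Depth limits haf-1 most, and 3 libraries a group limit every member.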
